A study of Drosophila melanogaster with 15 samples.

Results

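CCHa2 (FBgn0038147, chromosome arm 3R, minus strand) encodes CCHamide-2, a small secreted peptide hormone of the fruit fly Drosophila melanogaster. It is 1 gene of the 15682 gene symbols in the count files. It was found by its symbol, and it was chosen by its measured level, which was lower with dpp overexpression than in control and differed between the RNAi constructs against dpp. Its own values are therefore descriptions, given without a test. The Release 6 annotation lists 3 transcripts with 4 exons each, 1459 exonic bases in all and 0 overlapping genes; the counts were made on the older build dm3, so positions are not given.

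As background, CCHamide-2 is made in the fat body, the fly's counterpart of liver and adipose tissue, and in endocrine cells of the gut. In larvae its transcript depends on feeding, and the peptide acts on its receptor CCHa2-R in the brain, including the insulin-producing cells, where it promotes the making and release of insulin-like peptides. CCHamide-1 is a related peptide with its own receptor, CCHa1-R. The dpp gene makes Decapentaplegic (Dpp), one of the fly's bone morphogenetic protein (BMP) ligands. The study's title places Dpp from muscle in the control of feeding and of brain dopamine synthesis, so dopamine, feeding and insulin genes were read beside CCHa2.

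The 15 RNA libraries form 5 groups of 3: dpp RNAi construct #1 (construct 1), dpp RNAi construct #2 (construct 2), control RNAi, dpp overexpression and control. All carry the w1118 background and were labelled skeletal muscle; the tissue was dissected, and libraries were stranded total RNA. RNAi lowers a transcript through a matching double-stranded RNA. The treatment label reads RNAi for all 15, so groups rest on titles and genotypes. The labels used here give no promoter or driver line, sex, age, diet or number of pooled animals. Nor do they say that replicates were separate animals, so a p-value here speaks of the spread between samples alone, which may be technical.

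The 2 dpp RNAi groups were the shallowest: construct 1 libraries held 11244899 to 18083156 gene counts and construct 2 libraries 16719975 to 22400963. Control RNAi libraries held 31767317 to 33290702. The overexpression libraries spanned 25537295 to 56290808 gene counts, against 36807879 to 53325394 for control. dpp was 66.8 ± 13.4 CPM with dpp overexpression, against 33.5 ± 1.61 CPM in control (SD, n = 3 here and for every mean below; CPM is the count of a gene for each 1000000 gene counts of its library, with TMM scaling), a rise with an adjusted p of 1.39e-05. It was 32.0 ± 1.52 CPM under the construct 1 label, 31.3 ± 2.2 CPM under the construct 2 label and 31.5 ± 3.02 CPM in control RNAi. A lower dpp level was thus not detected in the libraries labelled dpp RNAi. Markers of photoreceptors summed to 7.38 to 9.65% of counts and markers of muscle to 0.544 to 1.65%, so the libraries hold more than the labelled tissue. A number in the library codes is the same for both dpp RNAi groups, another for control RNAi, and another for dpp overexpression and control together. Between the dpp RNAi groups and control RNAi, and between control RNAi and control, what this number stands for cannot be told apart from the groups. The pairs of dpp overexpression with control and of construct 1 with construct 2 each lie within 1 number.

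CCHa2 was an abundant transcript in every library, with 1533 to 20074 counts. The 3 construct 1 libraries had 131, 144 and 138 CPM. The construct 2 libraries had 313, 324 and 326 CPM, and the control RNAi libraries 147, 161 and 134 CPM. With dpp overexpression the level was 184, 181 and 185 CPM, against 363, 336 and 324 CPM in control. The levels fell into a low range that held construct 1, control RNAi and dpp overexpression, and a high range that held construct 2 and control. In bulk RNA such as this, fewer cells of a type and less RNA per cell cannot be told apart.

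**Figure D1:**
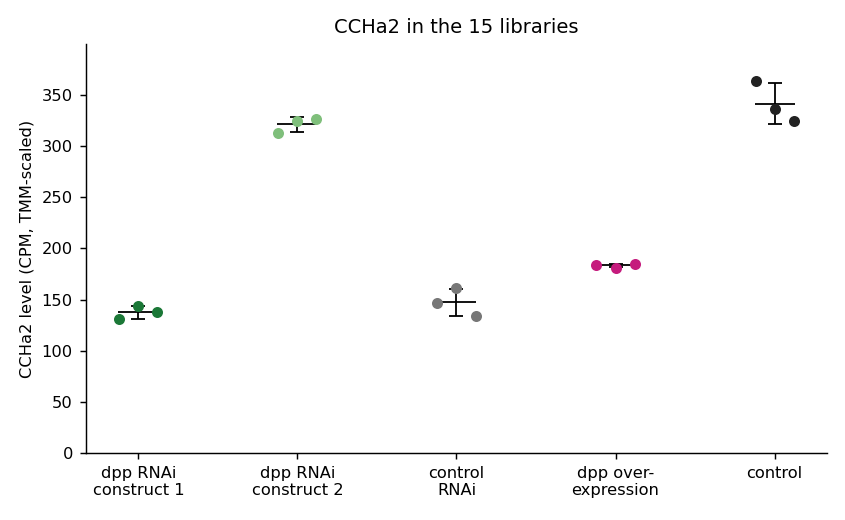
CCHa2 level in CPM (y axis, TMM-scaled, from 0) in the 15 libraries by group (x axis). Points are libraries, and the bars are the mean and SD of 3. Construct 2 and control lie at 313 to 363 CPM, and the other 3 groups at 131 to 185 CPM.

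Ordered by level, construct 1 (138 ± 6.48 CPM) and control RNAi (147 ± 13.5 CPM) overlapped. dpp overexpression (183 ± 1.86 CPM) lay above every control RNAi library and below every construct 2 library. Construct 2 (321 ± 7.38 CPM) and control (341 ± 20.0 CPM) overlapped again. The spread within groups was small beside the gap between the ranges: the pooled SD on the log2 scale was 0.08, while the profile over all libraries varied around its mean by 0.56 (root mean square over 15 libraries).

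With dpp overexpression the mean was 53.7% of that in control, a log2 fold change of -0.90 ± 0.06 (SE). All 3 overexpression libraries were below all 3 control libraries. Construct 1 stood at 42.9% of construct 2 (log2 -1.22 ± 0.06), again without overlap. These values chose the gene and carry no test. The constructs also stood differently against control RNAi: construct 1 at 93.5% of it (-0.10 ± 0.06) and construct 2 at 2.18 times its level (1.12 ± 0.06). So 1 construct's libraries overlapped those of control RNAi and the other's lay far above them, while dpp itself was near 32 CPM in all 3 groups.

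The mean of both constructs stood above control RNAi by 0.51 ± 0.06 on the log2 scale, and construct 2 alone made that difference, since construct 1 lay at control RNAi's level. With the other control the direction turned over: the mean of both constructs against control was -0.70 ± 0.05, an alternative chosen after seeing the data. Control RNAi had 43.2% of the CCHa2 level of control (-1.21 ± 0.06), without overlap. These values draw on the construct 2 and control libraries whose levels chose the gene, so they are given without a p-value as well.

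Among the other members of the CCHamide system, none of 3 passed the test with dpp overexpression, beside 29.6% of all 10668 tested genes. CCHa1, the gene of the related peptide CCHamide-1, had 4.46, 4.04 and 5.87 CPM with dpp overexpression, against 4.49, 4.47 and 4.2 CPM in control (0.10 ± 0.12, adjusted p = 0.591). The groups overlapped. With the constructs CCHa1 was 4.58 ± 0.354 CPM (construct 1) and 5.06 ± 0.305 CPM (construct 2), against 4.26 ± 0.422 CPM in control RNAi (mean of both 0.18 ± 0.12, adjusted p = 0.258).

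The receptor gene CCHa2-R (CCHa2r in the files) had 4.46, 4.75 and 4.83 CPM with dpp overexpression, against 4.04, 4.11 and 4.48 CPM in control (0.15 ± 0.12, adjusted p = 0.373). Its level was 5.21 ± 0.78 CPM with construct 1 and 3.78 ± 0.581 CPM with construct 2, against 4.58 ± 0.524 CPM in control RNAi, and the mean of both constructs did not pass (-0.06 ± 0.11, adjusted p = 0.725). The order of its 2 construct means was opposite to that of CCHa2. CCHa1-R (CCHa1r), the receptor gene for CCHamide-1, had 5.26 ± 0.577 CPM with construct 1 and 3.64 ± 0.474 CPM with construct 2, against 5.57 ± 0.937 CPM in control RNAi. It fell with construct 2 (-0.60 ± 0.14, adjusted p = 0.00338, beside 41.3% of all genes called) and in the mean of both (-0.35 ± 0.12, adjusted p = 0.0294, beside 38.9% of all genes called). The call of the mean was lost in 5 of 15 alternatives, each without 1 library: construct 1 replicate 1, construct 2 replicate 1 or 2, or control RNAi replicate 2 or 3 (adjusted p 0.00589 to 0.182 over the alternatives). With dpp overexpression CCHa1-R was at 5.8 ± 0.323 CPM, against 5.52 ± 0.513 CPM in control (0.07, adjusted p = 0.718).

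**Figure D2:**
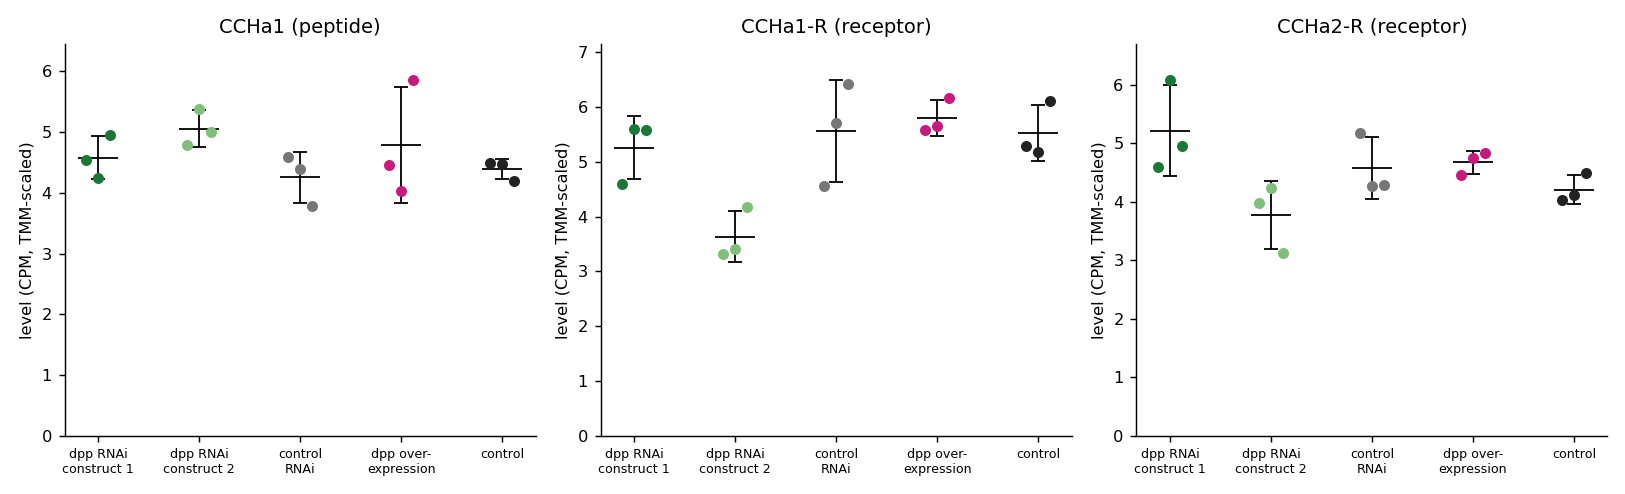
Levels of CCHa1, CCHa1-R and CCHa2-R (y axes, CPM, TMM-scaled, each from 0) in the 15 libraries by group (x axes). Points are libraries and bars the mean and SD of 3; all values lie between 3.12 and 6.42 CPM.

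Per length, CCHa2 stood well above its relatives. Its level per kilobase of exon was 94.4 CPM with construct 1, 220 CPM with construct 2, 101 CPM in control RNAi, 126 CPM with dpp overexpression and 234 CPM in control. It ranked between 290 and 802 of 10515 genes with a known length. CCHa1 had 4.97 to 5.90 CPM per kilobase over the group means, CCHa1-R 1.38 to 2.20 and CCHa2-R 1.29 to 1.78. The level of CCHa2 over that of CCHa1, per kilobase, was 22.5 with dpp overexpression and 45.7 in control. It was 17.7 with construct 1, 37.3 with construct 2 and 20.3 in control RNAi. Within this pair of peptide genes the level of CCHa2 varied between groups and that of CCHa1 passed no test in the 3 comparisons dpp overexpression against control, mean of both constructs against control RNAi, and control RNAi against control (-0.05, adjusted p = 0.791).

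The insulin-like peptides are the known targets of CCHamide-2 signalling in larvae. Of 12 tested genes of the peptides, their receptor and binding proteins, 2 were higher with dpp overexpression, 3 were lower and 7 were not called (beside 13.4% higher and 16.2% lower over all genes). The list's median log2 change was -0.19, and that of all genes was -0.01. Ilp2 and Ilp5, which are made in the insulin-producing cells, were among the 3 that fell. Ilp2 had 39.6, 40.5 and 53.1 CPM with dpp overexpression, against 76.6, 72.8 and 76.8 CPM in control. That is a log2 change of -0.77 ± 0.10 (adjusted p = 3.58e-05, edgeR), without overlap. Ilp5 had 9.29, 9.33 and 13.1 CPM with dpp overexpression, against 17.2, 17.8 and 17.9 CPM in control (-0.76 ± 0.11, adjusted p = 5.43e-05), also without overlap. In both genes dpp overexpression replicate 3, the shallowest library of its group with the highest not-aligned share, was well above the other replicates. CCHa2 in that library was 185 CPM, beside 184 and 181 CPM.

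Ilp3, the other peptide of these cells, did not pass (9.96 ± 0.938 CPM with dpp overexpression, against 11.7 ± 0.485 CPM in control; -0.24 ± 0.10, adjusted p = 0.106). Ilp6, the insulin-like peptide of the fat body, had 43.3 ± 5.23 CPM with dpp overexpression and 39.4 ± 0.439 CPM in control (0.14, adjusted p = 0.366). The insulin receptor gene InR rose, with 38.4, 33.9 and 37.6 CPM under dpp overexpression, against 31.4, 29.8 and 25.9 CPM in control (0.33 ± 0.08, adjusted p = 0.00542). Sdr (CG3837), a secreted decoy of that receptor, had 42.5 ± 4.83 CPM with dpp overexpression and 50.1 ± 0.988 CPM in control (-0.23 ± 0.07, adjusted p = 0.0188). Its call was lost in the fit of the 6 libraries alone and without dpp overexpression replicate 3, control replicate 1 or control replicate 2 (adjusted p 0.00935 to 0.102 over 12 alternatives). chico, the insulin receptor substrate gene, rose by 0.13 ± 0.04 (adjusted p = 0.0262). That call went without dpp overexpression replicate 1 or 2 or control replicate 2 or 3 (adjusted p 0.00501 to 0.120).

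The other members did not pass with dpp overexpression. ImpL2, which binds insulin-like peptides, was 52.3 ± 12 CPM with dpp overexpression and 69.0 ± 2.04 CPM in control (-0.39, adjusted p = 0.111). Ilp1 (-0.03), Ilp7 (-0.14), Ilp8 (-0.51) and Lgr3, the receptor of Ilp8 (0.02), were all below 5 CPM in both group means. Ilp4 was too low to be tested, with 11 counts in all with dpp overexpression and 52 in control.

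With the constructs the insulin list gave a different picture. In the mean of both against control RNAi, 1 member was called higher and 2 lower, with 9 not called (beside 19.3% higher and 19.6% lower over all genes), with a median of -0.11 against 0.00 for all genes. Ilp3 fell: it had 7.45, 7.45 and 6.21 CPM with construct 1 and 6.81, 7.24 and 7.76 CPM with construct 2, against 11.3, 14.4 and 10.6 CPM in control RNAi (-0.75 ± 0.10, adjusted p = 3.84e-05). Both constructs lay below control RNAi, and their means of 7.04 and 7.27 CPM were close to each other, unlike those of CCHa2. Ilp2 had 110 ± 4.09 CPM with construct 1 and 103 ± 2.17 CPM with construct 2, against 90.6 ± 11.3 CPM in control RNAi (0.23 ± 0.09, adjusted p = 0.0485). That call was lost in 10 of 15 alternatives (adjusted p 0.0110 to 0.259), among them without any 1 of the dpp RNAi libraries or control RNAi replicate 2 or 3.

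Ilp5 had 19.4 ± 2.1 CPM with construct 1 and 16.3 ± 1.32 CPM with construct 2, against 17.7 ± 0.45 CPM in control RNAi (0.00 ± 0.10, adjusted p = 0.976). InR did not pass either (-0.09, adjusted p = 0.358). chico fell by 0.13 ± 0.04 on the log2 scale (adjusted p = 0.00964); without control RNAi replicate 3 it missed the threshold (adjusted p 0.00172 to 0.0540 over 15 alternatives). Construct 1 against construct 2 had a log2 change of -1.22 in CCHa2, against 0.09 (adjusted p = 0.626) in Ilp2, 0.24 (adjusted p = 0.209) in Ilp5 and -0.04 (adjusted p = 0.881) in Ilp3.

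**Figure D3:**
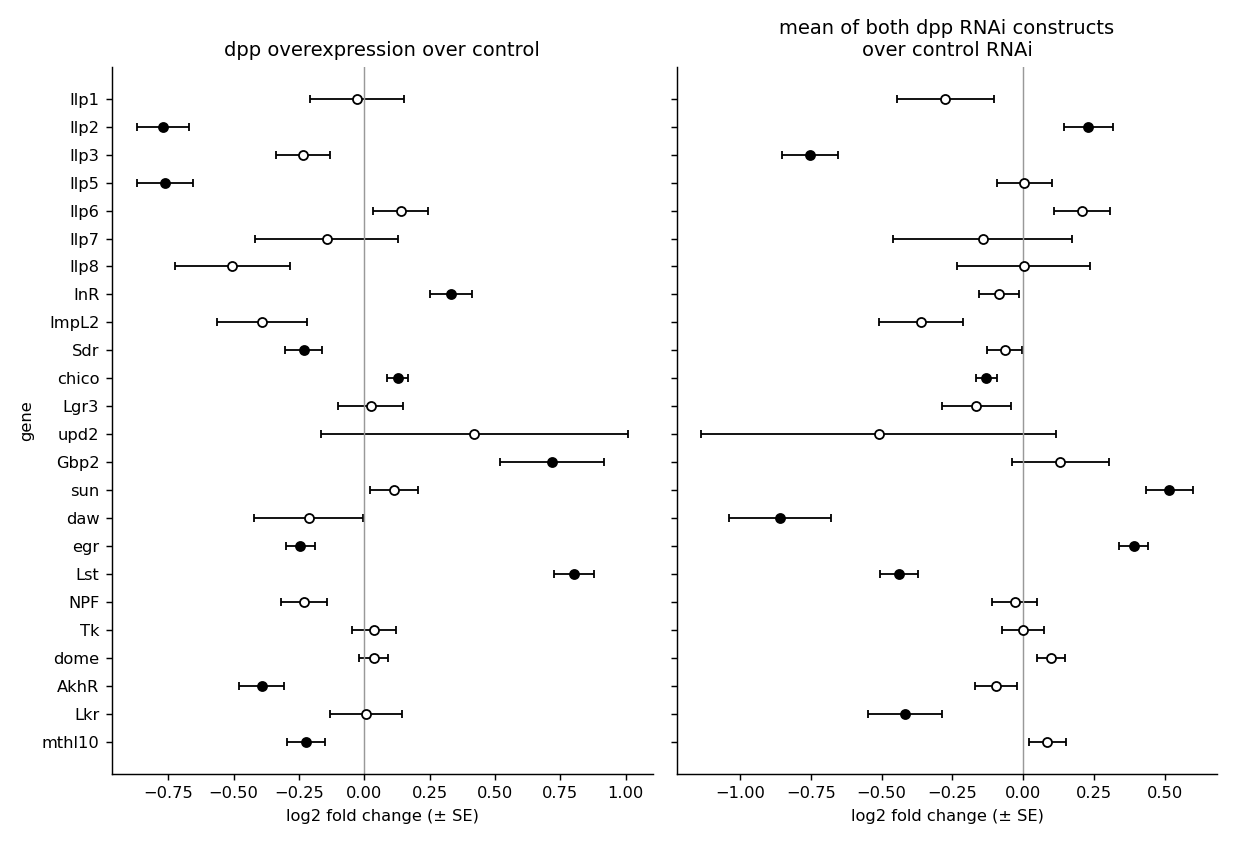
Log2 fold changes with SE (x axes, which differ in range) of the tested insulin-like peptide genes and signals to insulin-producing cells (y axis), for dpp overexpression over control (left) and the mean of both dpp RNAi constructs over control RNAi (right). Filled points passed the edgeR test at an adjusted p under 0.05; Ilp2 (-0.77) and Ilp5 (-0.76) lie low on the left, and Ilp3 (-0.75) and daw (-0.86) on the right.

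Between the control groups, 5 insulin-list members were higher in control RNAi, 1 was lower and 6 were not called. Over all genes 45.2% were called, 20.9% higher and 24.3% lower; that is 2234 and 2589 genes, and 1613 and 4213 without scaling factors. The median was 0.07 for the list and -0.04 for all genes. InR rose to 54.5 ± 5.92 CPM in control RNAi, against 29.0 ± 2.86 CPM in control (0.91 ± 0.08, adjusted p = 5.70e-07). Ilp6 fell to 28.1 ± 5.09 CPM in control RNAi, against 39.4 ± 0.439 CPM in control (-0.49 ± 0.11, adjusted p = 0.00215). Ilp5 was at 17.7 CPM in both (0.00 ± 0.11, adjusted p = 0.991), and their CCHa2 levels were 147 and 341 CPM. A link between CCHa2 and Ilp5 was not tested.

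Other hormones known to reach the insulin-producing cells were listed beside CCHa2, together with the receptor genes dome, AkhR, Lkr and mthl10. Of 12 tested, 2 were higher with dpp overexpression, 3 lower and 7 not called (median 0.02; all genes: 13.4% higher, 16.2% lower). With the mean of both constructs the counts were 2, 3 and 7 (median -0.01; all genes: 19.3% higher, 19.6% lower). Lst (CG8317) encodes limostatin, a peptide hormone of fasting that restrains insulin release. It had 114, 106 and 89.5 CPM with dpp overexpression, against 61.9, 60.6 and 55.4 CPM in control (0.80 ± 0.08, adjusted p = 7.62e-07). With construct 1 it had 34.9, 33.8 and 36.1 CPM, with construct 2 61.6, 56.7 and 60.7 CPM, and in control RNAi 58.4, 61.0 and 66.4 CPM. Its constructs parted too: it was lower with construct 1 (-0.83 ± 0.08, adjusted p = 1.06e-05, beside 25.7% of all genes called), not called with construct 2 (-0.05, adjusted p = 0.616), and lower in their mean (-0.44 ± 0.07, adjusted p = 0.000131). Construct 2 was above construct 1 in both genes, whereas dpp overexpression was below control in CCHa2 and above it in Lst.

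egr, the fly tumour necrosis factor gene, changed in both comparisons. It had 36.3, 38.6 and 36.3 CPM with dpp overexpression, against 44.2, 45.3 and 42.4 CPM in control (-0.25 ± 0.06, adjusted p = 0.00311). With construct 1 it was 33.8 ± 2.74 CPM and with construct 2 41.7 ± 1.9 CPM, against 28.7 ± 0.566 CPM in control RNAi (mean of both 0.39 ± 0.05, adjusted p = 3.84e-05). Against control in place of control RNAi the mean of both constructs turned to -0.23 ± 0.05 in egr (adjusted p = 0.00213, beside 35.0% of all genes called).

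Gbp2 (CG11395), a growth-blocking peptide of the fat body, had 426, 329 and 202 CPM with dpp overexpression, against 205, 195 and 182 CPM in control, and the groups overlapped through dpp overexpression replicate 3. Its change of 0.72 ± 0.20 passed (adjusted p = 0.0163) but not without dpp overexpression replicate 1 or control replicate 3, nor in the 6 libraries alone (adjusted p 7.84e-06 to 0.0853 over 12 alternatives). Its receptor gene mthl10 fell by 0.22 ± 0.07 (adjusted p = 0.0308); 5 of 12 alternatives lost the call, those without any 1 control library or dpp overexpression replicate 3 and the fit of 6 libraries (adjusted p 0.0179 to 0.131). AkhR (GRHR), the fat body receptor of adipokinetic hormone, fell to 101 ± 10.4 CPM with dpp overexpression, against 133 ± 7.81 CPM in control (-0.39 ± 0.09, adjusted p = 0.00248). The hormone gene Akh itself was too low to be tested (23 counts with dpp overexpression and 27 in control).

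With the constructs, sun, which encodes the fat body insulin secretagogue Stunted, rose to 135 ± 12.6 CPM with construct 1 and 138 ± 12.7 CPM with construct 2, against 95.6 ± 8.11 CPM in control RNAi (0.52 ± 0.08, adjusted p = 0.00022). daw, an activin-like ligand, fell: 61.5 ± 1.47 CPM with construct 1 and 56.2 ± 2.06 CPM with construct 2, against 107 ± 29.2 CPM in control RNAi (-0.86 ± 0.18, adjusted p = 0.00296). Against control in place of control RNAi the mean of both constructs was 0.02 in daw (adjusted p = 0.951), and control RNAi itself was above control by 0.88 (adjusted p = 0.00516). sun was higher against control too (0.31 ± 0.08, adjusted p = 0.00799). Lkr, the leucokinin receptor gene, was 6.19 ± 0.995 CPM with construct 1, against 6.37 ± 1.13 CPM in control RNAi (-0.06, adjusted p = 0.821). With construct 2 it fell to 3.71 ± 0.579 CPM (-0.78 ± 0.16, adjusted p = 0.0013, beside 41.3% of all genes called). Its mean of both constructs was lower (-0.42 ± 0.13, adjusted p = 0.0205), and construct 2 made that difference. That call was lost without construct 1 replicate 1 or control RNAi replicate 1 or 2 (adjusted p 0.00759 to 0.133 over 15 alternatives), and against control the value was -0.15 (adjusted p = 0.404). The cytokine gene upd2, at 0.167 to 0.296 CPM in group means, its receptor gene dome, NPF (npf) and Tk were called in neither comparison; Gbp1 was not matched to a symbol of the files.

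Gut endocrine cells are a known source of CCHamide-2. Of their peptide genes, with dpp overexpression 0 of 12 were higher, 2 were lower and 10 were not called (median 0.02; all genes: 13.4% higher, 16.2% lower). The 2 were ITP (itp), the ion transport peptide gene, and Orcokinin (CG13565). Which cells the transcripts of this list came from was not tested. Over the 15 libraries digestive tract markers summed to 0.00568 to 0.0193% of counts, and neuron markers to 0.828 to 1.41%. itp had 87.2, 87.5 and 103 CPM with dpp overexpression, against 123, 112 and 129 CPM in control (-0.39 ± 0.07, adjusted p = 0.000486). Orcokinin fell to 54.9 ± 7.25 CPM with dpp overexpression, against 66.1 ± 4.82 CPM in control (-0.27 ± 0.08, adjusted p = 0.0188). That call was lost in the 6 libraries alone and without dpp overexpression replicate 1 or 2 or control replicate 3 (adjusted p 0.000233 to 0.102 over 12 alternatives).

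NPF (-0.23 ± 0.09, adjusted p = 0.0628), Tk (0.04), AstA (Ast, 0.07), AstC (Ast-C, 0.13), Mip (-0.15), Dh31 (0.00), sNPF (0.20), CCAP (Ccap, -0.12), Nplp2 (0.20) and CCHa1 were not called with dpp overexpression. All of these except Nplp2, CCAP and CCHa1 had means between 30.7 and 183 CPM with dpp overexpression. With the mean of both constructs, 1 of the 12 was called, beside 38.9% of all genes: sNPF, a feeding neuropeptide gene, fell to 178 ± 2.56 CPM with construct 1 and 165 ± 18.1 CPM with construct 2, against 206 ± 5.98 CPM in control RNAi (-0.27 ± 0.07, adjusted p = 0.00584). Against control it was 0.11 (adjusted p = 0.228). Between the controls, 6 of 12 were higher in control RNAi and none lower (all genes: 20.9% higher, 24.3% lower), among them AstC (0.70 ± 0.10, adjusted p = 5.73e-05). None of these genes was among the 10 whose profiles lay nearest to that of CCHa2.

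Feeding peptides and their receptors had 3 higher, 3 lower and 19 not called of 25 with dpp overexpression (median -0.03; all genes: 13.4% higher, 16.2% lower), and 2, 10 and 13 with the mean of both constructs (median -0.17; all genes: 19.3% higher, 19.6% lower). The constructs parted in this list. With construct 1 against control RNAi 2 of the 25 were higher and 2 lower, beside 25.7% of all genes called. With construct 2 it was 1 higher and 14 lower, beside 41.3% of all genes called. CrzR (GRHRII), the receptor gene of corazonin, passed with dpp overexpression and in the mean of both constructs. It had 28.8, 31.8 and 23.5 CPM with dpp overexpression, against 45.1, 45.2 and 42.7 CPM in control (-0.65 ± 0.10, adjusted p = 0.000116). It rose with the constructs to 45.6 ± 5.14 CPM (construct 1) and 55.0 ± 3.93 CPM (construct 2), against 30.7 ± 2.45 CPM in control RNAi (0.71 ± 0.09, adjusted p = 3.36e-05); against control the mean of both was 0.18 (adjusted p = 0.122). Dsk, the gene of the satiety peptide drosulfakinin, fell with dpp overexpression (-0.36 ± 0.06, adjusted p = 0.000224), and so did sNPF-R (-0.16 ± 0.04, adjusted p = 0.0121). Hugin (hug; 0.31 ± 0.05, adjusted p = 0.000198) and Dh44 (0.35 ± 0.09, adjusted p = 0.00524) rose with it. Dh31-R (Dh31-R1) rose by 0.15 ± 0.05 (adjusted p = 0.0275) and lost its call without dpp overexpression replicate 2 or 3 or control replicate 1 or 2 (adjusted p 0.0101 to 0.103 over 12 alternatives). With the constructs AstA-R1 (AlstR), an allatostatin A receptor gene, fell against control RNAi (-0.63 ± 0.05, adjusted p = 8.71e-07), with 0.08 against control (adjusted p = 0.246).

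Nutrient response genes had 11 higher, 5 lower and 8 not called of 24 with dpp overexpression (median 0.17; all genes: 13.4% higher, 16.2% lower), and 6, 8 and 10 with the mean of both constructs (median -0.02; all genes: 19.3% higher, 19.6% lower). tobi, a glucosidase gene that responds to insulin and adipokinetic hormone, fell to 15.4 ± 1.96 CPM with dpp overexpression, against 32.2 ± 3.54 CPM in control (-1.08 ± 0.15, adjusted p = 8.59e-05). It was at 449 ± 47.3 CPM with construct 1, 666 ± 18.5 CPM with construct 2 and 394 ± 85.9 CPM in control RNAi, so the dpp RNAi and control RNAi groups stood far from the other pair in this gene. Pepck, for a gluconeogenic enzyme, fell with dpp overexpression (-0.69 ± 0.12, adjusted p = 0.00041) and with the constructs (-0.86 ± 0.10, adjusted p = 1.90e-05), as did Pepck2 (CG10924; -1.38 ± 0.10, adjusted p = 6.95e-08, and -1.44 ± 0.08, adjusted p = 4.29e-09). With control in place of control RNAi the constructs' direction turned in both: 0.30 ± 0.10 in Pepck (adjusted p = 0.0345) and 0.72 ± 0.08 in Pepck2 (CG10924; adjusted p = 1.18e-05). FASN2 (v(2)k05816), for a fatty acid synthase, rose to 38.2 ± 5.66 CPM with dpp overexpression, against 3.76 ± 0.455 CPM in control (3.34 ± 0.16, adjusted p = 2.55e-09). Thor, the translation inhibitor gene that is high in fasted flies, rose as well (0.50 ± 0.05, adjusted p = 2.09e-06), and so did Desat1 (desat1), for a fatty acid desaturase (0.54 ± 0.07, adjusted p = 2.86e-05).

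Of 11 genes of dopamine synthesis and transport, 0 were higher with dpp overexpression, 4 lower and 7 not called (median -0.15; all genes: 13.4% higher, 16.2% lower). With the mean of both constructs 4 were higher, 1 lower and 6 not called (median 0.06; all genes: 19.3% higher, 19.6% lower). ple encodes tyrosine hydroxylase, the first enzyme of dopamine synthesis. It had 61.0, 69.9 and 63.9 CPM with dpp overexpression, against 130, 123 and 122 CPM in control (-0.94 ± 0.09, adjusted p = 1.07e-06). With the constructs it rose to 111 ± 11 CPM (construct 1) and 129 ± 13.5 CPM (construct 2), against 83.7 ± 8.61 CPM in control RNAi (0.52 ± 0.08, adjusted p = 0.000136). Against control in place of control RNAi the mean of both constructs was -0.06 in ple (adjusted p = 0.577).

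e (ebony) and b (black), whose enzymes serve the coupling of beta-alanine to amines, were among the 4 that fell. e had 36.5 ± 4.53 CPM with dpp overexpression and 63.0 ± 4.61 CPM in control (-0.78 ± 0.09, adjusted p = 1.71e-05). Its construct 1 mean was 55.9 ± 1.92 CPM and its construct 2 mean 111 ± 15.4 CPM, against 66.2 ± 2.88 CPM in control RNAi. b had 42.9 ± 5.06 CPM with dpp overexpression and 85.0 ± 7.46 CPM in control (-0.98 ± 0.12, adjusted p = 3.04e-05), and 79.0 ± 10.6 CPM with construct 1 and 124 ± 16.8 CPM with construct 2, against 64.0 ± 5.11 CPM in control RNAi. In both genes, as in CCHa2, dpp overexpression lay below control and construct 1 below construct 2. Unlike CCHa2, both had their lowest mean with dpp overexpression and their highest with construct 2. Between the controls 4 of the 11 genes of this list were higher in control RNAi, 3 lower and 4 not called (median 0.07; all genes: 20.9% higher, 24.3% lower). There e did not pass (0.07, adjusted p = 0.554). The mean of b was 64.0 CPM in control RNAi and 85.0 CPM in control. Like CCHa2, b and ple had lower means in control RNAi than in control.

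BMP signalling genes had 6 higher, 4 lower and 7 not called of 17 with dpp overexpression (median 0.05; all genes: 13.4% higher, 16.2% lower). brk, the repressor that Dpp signalling silences, fell to 7.81 ± 0.0583 CPM with dpp overexpression, against 15.0 ± 0.38 CPM in control (-0.94 ± 0.09, adjusted p = 1.05e-06), beside -0.90 in CCHa2. sog (-0.27, adjusted p = 0.0012) and dally (-0.21, adjusted p = 0.0102) fell too, and dally lost its call in 2 of 12 alternatives. Besides dpp, tld (1.34, adjusted p = 5.42e-08) and Dad (0.35, adjusted p = 1.24e-05) rose. In the mean of both constructs dlp (-0.45, adjusted p = 3.60e-05) and wit (-0.25, adjusted p = 0.000218) fell against control RNAi. With the mean of both constructs brk did not pass (0.02, adjusted p = 0.862), and 4 of the 17 were higher, 6 lower and 7 not called (median -0.01; all genes: 19.3% higher, 19.6% lower).

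Since CCHa2 is known from fat body and gut, markers of those tissues were summed in each library. Fat body markers summed to 6640 to 8752 CPM with dpp overexpression, against 6231 to 7287 CPM in control; 7 of 18 were higher, 2 lower and 9 not called (median 0.31; all genes: 13.4% higher, 16.2% lower). The sum overlapped between these groups. It was 9846 to 11455 CPM with construct 1, 12166 to 14221 CPM with construct 2 and 11087 to 12868 CPM in control RNAi. In the mean of both constructs 3 fat body markers were higher, 4 lower and 11 not called (median -0.11; all genes: 19.3% higher, 19.6% lower). Control RNAi had a higher sum than control, with 10 of 18 markers higher and none lower (median 0.45; all genes: 20.9% higher, 24.3% lower). In this sum, as in CCHa2, construct 1 lay below construct 2, while control RNAi lay above control. The part of fat body content in the CCHa2 result was not tested.

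Single fat body markers moved apart from each other. With dpp overexpression the storage protein gene Lsp1gamma rose (5.31 ± 0.28, adjusted p = 1.18e-09) and Lsp1alpha fell (-4.17 ± 0.34, adjusted p = 1.26e-06), both under 10 CPM. The fat body determinant gene srp rose (0.64 ± 0.07, adjusted p = 5.13e-06) and fit, for a satiety peptide, rose (1.28 ± 0.21, adjusted p = 0.000633). Lsd-1 (plin1), for a lipid droplet protein, fell by 0.32 ± 0.09 (adjusted p = 0.0162), but not without dpp overexpression replicate 3 or control replicate 1 (adjusted p 0.00909 to 0.0813 over 12 alternatives). With the constructs Fbp1 rose (3.44 ± 0.29, adjusted p = 8.71e-07) and to fell (-1.06 ± 0.13, adjusted p = 5.85e-05); against control Fbp1 was 2.73 ± 0.24 (adjusted p = 5.15e-07) and to was 0.24 (adjusted p = 0.189).

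Digestive tract markers were sparse: 10 of 20 were abundant enough to test. Their sum was 103 to 193 CPM with dpp overexpression, against 88.9 to 103 CPM in control; 2 of 10 were higher and none lower (median 1.12; all genes: 13.4% higher, 16.2% lower). It was 78.4 to 102 CPM with construct 1, 125 to 172 CPM with construct 2 and 56.8 to 65.4 CPM in control RNAi, where the counts in the mean of both constructs were 3 higher, 3 lower and 4 not called (median -0.63; all genes: 19.3% higher, 19.6% lower). Between 1 and 4 of the 20 had no count in a whole group: thetaTry with dpp overexpression; Jon25Bi, epsilonTry, lambdaTry and thetaTry in control; lambdaTry, Mur29B and Vha100-4 with construct 1; Jon99Fi, Npc2d and lambdaTry with construct 2; CG9466, Npc2d and thetaTry in control RNAi. In this sum, as in CCHa2, construct 2 lay above construct 1 and control above control RNAi, while dpp overexpression did not lie below control. The single markers went against the sum between the controls: 6 of 10 were higher in control RNAi, 2 lower and 2 not called (median 2.79; all genes: 20.9% higher, 24.3% lower). The part of tissue content in the CCHa2 result was not tested.

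Other markers moved too. Haemocyte markers summed to 305 to 1211 CPM with dpp overexpression, against 744 to 950 CPM in control, with replicate 3 of dpp overexpression lowest; its CCHa2 level, 185 CPM, was that of the other replicates. They summed to 540 to 730 CPM with construct 1, 1112 to 1179 CPM with construct 2 and 432 to 532 CPM in control RNAi. Muscle markers summed to 11415 to 13815 CPM with dpp overexpression, against 11617 to 13077 CPM in control. They summed to 9606 to 15221 CPM with construct 1 and 11799 to 16521 CPM with construct 2, against 5444 to 5580 CPM in control RNAi, with 20 of 23 higher and none lower in the mean of both constructs (median 1.33; all genes: 19.3% higher, 19.6% lower). Between the controls 21 of the 23 were lower in control RNAi and none higher (median -1.07; all genes: 20.9% higher, 24.3% lower). In the mean of both constructs, neuron markers went the other way from muscle markers (1 higher, 13 lower and 4 not called of 18). So did photoreceptor markers (0 higher, 12 lower and 4 not called of 16), beside 19.3% higher and 19.6% lower over all genes. Between the controls 16 of the 18 neuron markers were higher in control RNAi and none lower. Of the 16 photoreceptor markers 6 were higher in control RNAi and 1 was lower. With dpp overexpression 1 neuron marker was higher and 1 lower of 18, and 2 photoreceptor markers were higher and 3 lower of 16 (all genes: 13.4% higher, 16.2% lower). Of 9 glia markers, none was higher and 3 were lower with dpp overexpression. In the mean of both constructs 2 were higher and 2 lower (all genes: 19.3% higher, 19.6% lower), and the constructs parted. With construct 1 it was 2 higher and 5 lower, beside 25.7% of all genes called. With construct 2 it was 2 higher and 1 lower, beside 41.3% of all genes called. Between the controls 7 were higher in control RNAi and 1 lower (all genes: 20.9% higher, 24.3% lower). Glia markers summed to 1961 to 2033 CPM with dpp overexpression, against 2198 to 2264 CPM in control. The glia sum was 2154 to 2374 CPM with construct 1, 2790 to 2849 CPM with construct 2 and 2686 to 2817 CPM in control RNAi. In this sum, as in CCHa2, dpp overexpression lay below control and construct 1 below construct 2, while control RNAi lay above control. None of the fat body, neuron, photoreceptor, muscle, glia or haemocyte markers was at 0 in a whole group, and their part in the CCHa2 result was not tested.

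**Figure D4:**
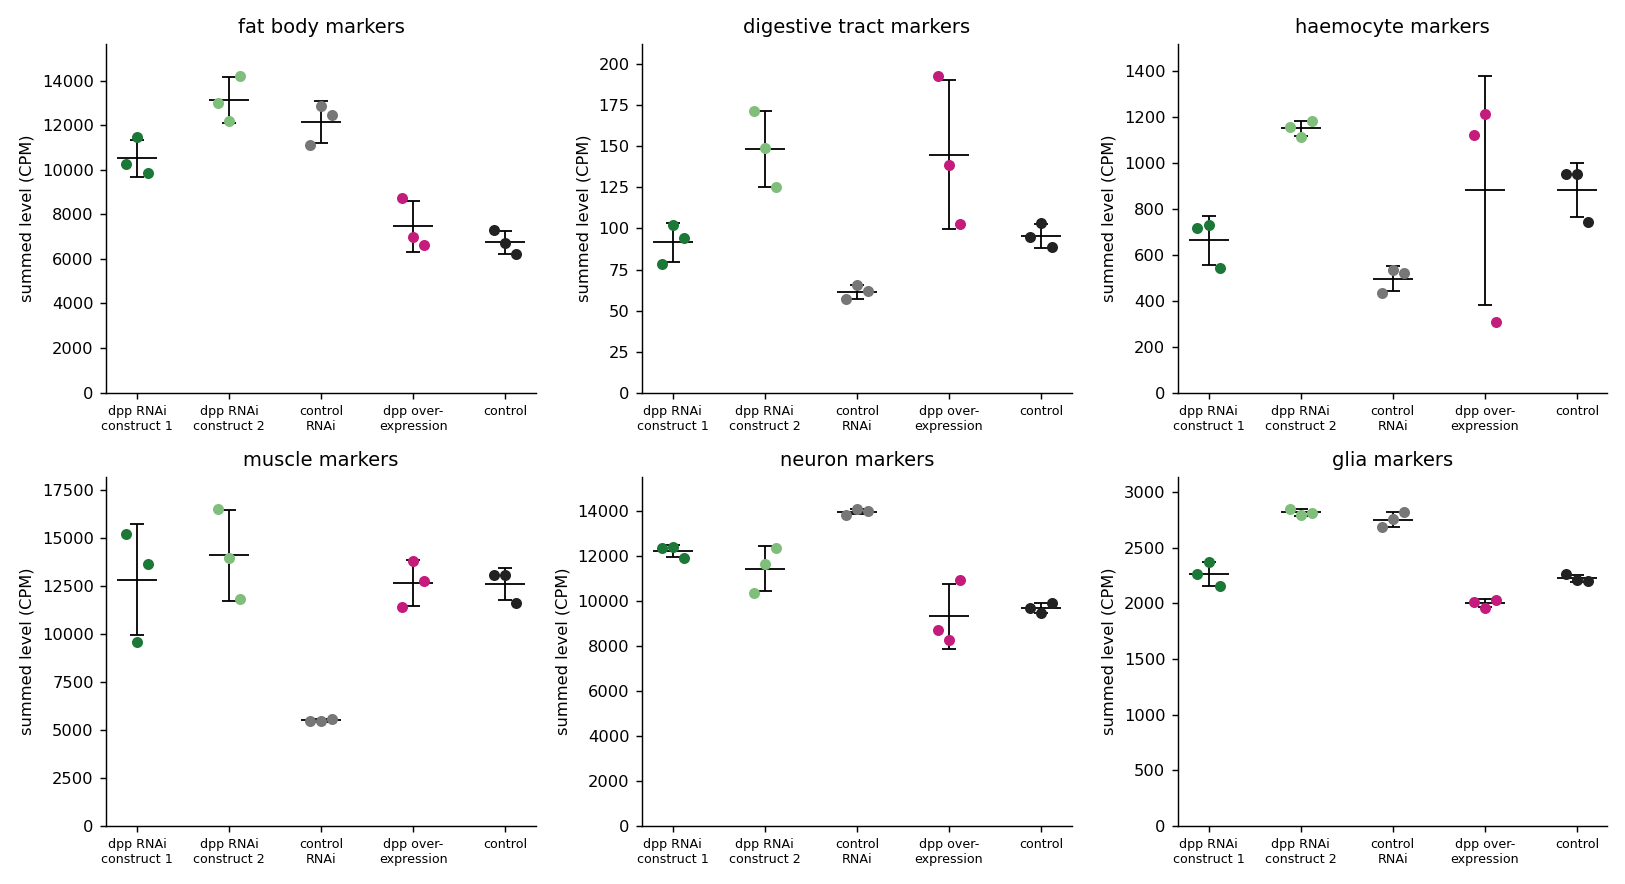
Summed level of marker genes (y axes, CPM, TMM-scaled, each from 0) of fat body, digestive tract, haemocytes, muscle, neurons and glia in the 15 libraries by group (x axes). Points are libraries and bars the mean and SD of 3. Control RNAi is lowest in muscle markers (5444 to 5580 CPM), and the fat body sum with dpp overexpression (6640 to 8752 CPM) overlaps that in control (6231 to 7287 CPM).

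Over the 15 libraries, the 10 genes whose log2 profiles lay nearest to that of CCHa2 among 10667 were named by the root mean square difference of centred log2 CPM. In order they were CG18853 (0.23), CG32407 (0.23), NT5E-2 (0.25), Obp99b (0.26), spz5 (0.29), CG13562 (0.30), CG31207 (0.30), krimp (0.30), Sodh2 (Sodh-2, 0.30) and Acsx3 (CG11407, 0.30). The next gene stood at 0.31, so the list has no sharp end, and the median over all genes was 0.59. Because they were picked for this likeness, their levels are a description.

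Obp99b, an odorant-binding protein gene, had 199 ± 60.5 CPM with dpp overexpression and 362 ± 13.1 CPM in control, and 195 ± 17.3 CPM with construct 1 and 324 ± 44.3 CPM with construct 2, against 144 ± 15.1 CPM in control RNAi. Acsx3 had 128 ± 12.3 CPM with dpp overexpression and 257 ± 6.95 CPM in control, with 146 ± 22 CPM under construct 1 and 201 ± 20.6 CPM under construct 2, against 130 ± 5.28 CPM in control RNAi. spz5, for a neurotrophin-like ligand, had 8.83 ± 0.705 CPM with dpp overexpression and 15.5 ± 0.153 CPM in control, and Sodh2, for a sorbitol dehydrogenase, 42.1 ± 2.55 CPM with dpp overexpression and 58.1 ± 1.14 CPM in control. All 10 had a negative log2 change with dpp overexpression (-1.0 to -0.46) and in construct 1 against construct 2 (-0.86 to -0.40), where CCHa2 had -1.22. None is a member of the lists above. They lie on 3 chromosome arms, 4 of them on 3R with CCHa2.

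**Figure D5:**
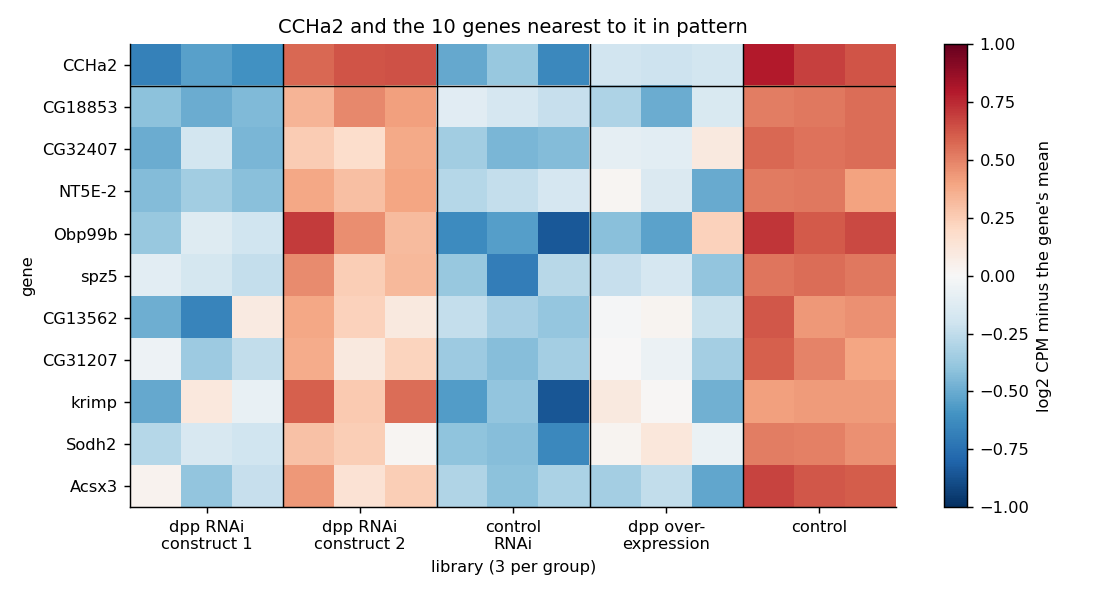
Heat map of log2 CPM minus each gene's own mean (colour scale, -1 to 1) for CCHa2 (top row) and the 10 genes nearest to it (y axis) in the 15 libraries by group (x axis). Rows are above their mean in construct 2 and control on the group average; CCHa2 has a root mean square of 0.56 around its mean.

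The 10 annotated neighbours, 5 on each side of CCHa2, were read in 4 comparisons. Of these, 9 were in the files and 7 could be tested. With dpp overexpression 1 of the 7 was called, beside 29.6% of all genes. On one side, CG8870 (-0.27 ± 0.20, adjusted p = 0.362), mRpS21 (-0.03, adjusted p = 0.814), Droj2 (-0.09, adjusted p = 0.171) and CG9799 (0.11, adjusted p = 0.308) did not pass with dpp overexpression. On the other side, CG14377 (-0.68 ± 0.41, adjusted p = 0.246) and Dpm3 (CG33977; -0.02, adjusted p = 0.907) did not pass, and CG14374 and yellow-e3 were too low to test. GILT1 (CG9796), for a thiol reductase, fell, with 106, 103 and 70.0 CPM with dpp overexpression, against 124, 119 and 112 CPM in control (-0.34 ± 0.11, adjusted p = 0.0317). Its call was lost in 4 of 12 alternatives: no filter on low counts, the 6 libraries alone, and without control replicate 1 or 2 (adjusted p 0.00888 to 0.193). The adjacent genes CG9799 and CG14374 lie directly beside CCHa2. CG9799 had 18.7 ± 1.51 CPM with dpp overexpression, against 17.3 ± 1.26 CPM in control, and CG14374 had group means under 1 CPM.

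With the mean of both constructs against control RNAi, 3 of the 7 neighbours were higher and none lower, beside 38.9% of all genes called. mRpS21, a mitochondrial ribosomal protein gene, rose by 0.55 ± 0.08 (adjusted p = 5.66e-05). Droj2 rose by 0.14 ± 0.04 (adjusted p = 0.0144) and Dpm3 by 0.27 ± 0.09 (adjusted p = 0.0246). Droj2 lost its call with no filter on low counts and without control RNAi replicate 1 or 2 (adjusted p 0.0022 to 0.0645 over 15 alternatives). Dpm3 lost it without construct 1 replicate 1, construct 2 replicate 1 or any 1 control RNAi library (adjusted p 0.00983 to 0.0816). Between the controls CG8870 (-0.85 ± 0.23, adjusted p = 0.00687), mRpS21 (-0.29 ± 0.08, adjusted p = 0.011) and Droj2 (-0.29 ± 0.05, adjusted p = 0.000151) were lower in control RNAi, 3 of 7 beside 45.2% of all genes called; mRpS21 lost its call without control RNAi replicate 2 or 3 (adjusted p 0.000737 to 0.067 over 12 alternatives). With control in place of control RNAi the mean of both constructs was 0.27 in mRpS21 (adjusted p = 0.0102), -0.15 in Droj2 (adjusted p = 0.00923) and 0.08 in Dpm3 (adjusted p = 0.522), so Droj2 turned over. In construct 1 against construct 2, where CCHa2 had -1.22, GILT1 had -0.38 (adjusted p = 0.0485) and the other 6 had -0.19 to -0.03.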

How the data were processed

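RNA was read from 15 libraries, 3 in each of 5 groups taken from titles and genotypes. The deposited files hold whole-number counts per gene symbol, made by the authors on build dm3 with BWA, STAR and HTSeq, per the submitters' processing notes; versions, annotation and strand setting are not given in the sources used here, so reads of paralogs or antisense partners may have been divided in unseen ways. HTSeq summary lines (14.48 to 20.93% of entries) were left out.

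Counts were fitted for all 15 libraries in edgeR 4.0.16 (R 4.3.3): filterByExpr with a minimum count of 10 kept 10668 of 15682 genes, TMM factors were 0.9596 to 1.048, and the quasi-likelihood test with robust dispersions had 10 residual degrees of freedom. It was tested on simulated data. A gene was called where its p, after Benjamini-Hochberg adjustment across the whole table, was under 0.05; adjusted p-values are from edgeR, and ranges over alternatives include DESeq2. log2 CPM used a prior count of 2. A count of 0 allows up to 3 counts, 0.0533 to 0.267 CPM depending on the library; such limits cover counting error only, since PCR copies are not independent.

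The gene, lists and tests were chosen with earlier results of these data known. Named genes were CCHa2, dpp, all members of the CCHamide, insulin, insulin-signal and gut peptide lists, the 10 nearest profiles and 5 annotated neighbours per side. Other lists gave up to 3 called genes per direction with the smallest p with dpp overexpression and up to 2 with the constructs. Those of the digestive tract, neuron, photoreceptor, muscle, glia and haemocyte lists were checked under the alternatives, but their values are not printed. Symbols are those of the Release 6 annotation (11928 matched by symbol, 3441 by synonym, 153 ambiguous, 160 unmatched), with the files' symbol in brackets. Pepck, ambiguous there, keeps its file name, and CG10924 is given the annotation's name Pepck2. DESeq2 1.42.0, other scalings, no filter, fewer libraries and a replicate term were alternatives.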

Additional observations from a re-analysis of the deposited data

How the results depend on the processing

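Of 152 alternatives over 17 results on CCHa2 and on counts of called genes, 149 were counted as the same. The rule differed by result. A count of called genes was the same within a ratio of 1.5, and a group level within 1 SD. For CCHa2 in the mean of both constructs and in control RNAi against control, the direction and the call at an adjusted p under 0.05 had to stay. For its other changes the direction had to stay and the shift had to be under the pooled SD of 0.08. Those calls served this counting alone, since CCHa2 changes are described without a test. Control RNAi against control ranged from -1.31 to -1.15 over its 12 alternatives, beside -1.21 in the main fit. The exception in direction was the mean of both constructs, 0.51 against control RNAi and -0.70 with control in its place, an alternative chosen after seeing the data; the cause was not tested. Without scaling factors the CCHa2 mean was 313 CPM with construct 2 (321 with them) and 190.1 CPM with dpp overexpression (183 with them), beyond 1 SD.

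Leaving out each library in turn gave log2 changes of CCHa2 from -0.93 to -0.85 for dpp overexpression against control, -0.16 to -0.03 for construct 1 and 1.06 to 1.19 for construct 2 against control RNAi, 0.45 to 0.58 for their mean, -1.26 to -1.19 for construct 1 against construct 2 and -1.28 to -1.15 for control RNAi against control. Called genes ranged from 2395 to 3463, 2024 to 2614, 3410 to 3995, 3189 to 4075 and 3908 to 4528 for dpp overexpression, construct 1, construct 2, their mean and control RNAi against control.

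Groups shared replicate numbers. Over 30 same-number pairs the correlation of deviations was -0.164 to 0.246, and 7 were over 0.1. Pairs with different numbers were not compared, so this cannot decide whether the numbers pair the samples. With a replicate block CCHa2 was -0.90 (dpp overexpression against control), 0.51 (mean of constructs) and -1.21 (control RNAi against control), and 3138, 4168 and 4882 genes were called.

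In control RNAi against control, 46.3% of called genes were higher, and 27.7% without scaling factors (median of all genes -0.04 and -0.13). Called named list genes were read in the alternatives that kept the groups compared, a reading added after seeing the data. In all of these, 39 of 57 with dpp overexpression, 26 of 32 in the mean of constructs and 12 of 16 between the controls held. None reversed in them. Of the 32, 15 had the opposite sign when control replaced control RNAi, 8 of them called. CCHa2's nearest 10 genes shared 8 with a mean absolute difference and 10 without scaling factors. The shallowest library had 11244899 gene counts and 1533 counts of CCHa2; CCHa1-R and CCHa2-R, at 3.12 to 6.42 CPM, rest on far fewer. An effect of depth was not tested.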
